A study of Mus musculus with 4 samples.

Results

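The Fc gamma receptors Fcgr1, Fcgr3 and Fcgr2b and the signalling chain Fcer1g were read in thioglycollate-elicited peritoneal cells of wild-type and Cebpe-deficient mice. Probe sets were taken where the platform annotation gave exactly 1 gene symbol equal to one of these 4 genes. Of the 4 genes, 3 had such a probe set: Fcgr1, Fcgr3 and Fcer1g had 1 each. These are 3 of 13069 probe sets and 3 of 6137 named genes, and all lay on array type A. No probe set was given the symbol Fcgr2b, so the inhibitory receptor was not analysed here, and the intended comparison of activating with inhibitory receptor could not be made.

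Fc gamma receptors bind the constant region of IgG and let phagocytes take up antibody-coated particles. The activating receptors Fcgr1 (CD64, of high affinity) and Fcgr3 (CD16, of low affinity) have no signalling motif of their own and depend on the common chain Fcer1g, whose ITAM is phosphorylated by Src family kinases and recruits the kinase Syk. Fcgr2b (CD32) carries an inhibitory ITIM that recruits the lipid phosphatase Inpp5d (SHIP1), so the balance of activating and inhibitory receptors sets the response to immune complexes.

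The cells came from C/EBPE wild-type (+/+) and deficient (-/-) mice, which lack the granulocyte transcription factor C/EBPε, on a mixed 129/SvEv x NIH Black Swiss background. For each genotype 4 mice, 6 to 8 weeks of age, were given 2 ml of 4% thioglycollate broth by intraperitoneal injection per the labels, and their cells were washed out of the cavity 24 h later. The cells were unsorted, with about 30% monocytes, 60% neutrophils and 7 to 10% lymphocytes by cytospin of 100 to 200 cells in wild-type and deficient mice alike. The submitters were looking for genes that C/EBPε may regulate in phagocytes. Total RNA of each genotype was hybridised to 1 array of each of 2 types, A and B, so each difference rests on 1 array against 1, no test was possible and the spread between mice is unknown. Cebpe itself had no probe set with 1 symbol, so the deletion was not checked on these arrays.

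Because the factor under study binds DNA, the stretches just before the start sites of the 3 measured genes are shown. They come from RefSeq (GRCm38.p6, the C57BL/6J reference and not these mice), run 5′ to 3′ on the gene's strand and end at the base before the start. Capitals mark letters matching a loose C/EBP motif, TTNNGNAA, or the PU.1 core, GAGGAA, on either strand (reverse complements TTNCNNAA and TTCCTC). Fcgr1 lies at chr3:96293970-96294219, Fcgr3 at chr1:171059404-171059653 and Fcer1g at chr1:171234350-171234599, all on the minus strand.
Fcgr1: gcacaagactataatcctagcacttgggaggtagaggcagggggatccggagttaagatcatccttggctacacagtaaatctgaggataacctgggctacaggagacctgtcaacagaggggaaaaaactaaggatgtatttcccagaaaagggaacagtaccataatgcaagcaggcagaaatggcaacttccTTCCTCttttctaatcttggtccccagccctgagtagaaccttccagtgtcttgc
Fcgr3: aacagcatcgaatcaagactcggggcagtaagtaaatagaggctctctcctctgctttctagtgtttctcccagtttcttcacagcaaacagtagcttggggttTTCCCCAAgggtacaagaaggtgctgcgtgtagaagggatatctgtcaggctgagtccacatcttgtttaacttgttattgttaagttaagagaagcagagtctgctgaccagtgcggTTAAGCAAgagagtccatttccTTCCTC
Fcer1g: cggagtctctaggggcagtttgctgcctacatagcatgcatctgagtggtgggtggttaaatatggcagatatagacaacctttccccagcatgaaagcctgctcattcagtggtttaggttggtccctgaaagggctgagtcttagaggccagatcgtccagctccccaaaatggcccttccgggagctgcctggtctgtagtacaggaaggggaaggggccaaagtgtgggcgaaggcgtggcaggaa
The Fcgr3 stretch held 2 C/EBP matches, TTCCCCAA and TTAAGCAA, and 1 PU.1 match that ended at the base before the start. The start site used for Fcgr3 lies inside the annotated gene span, and a further entry starting 9 bases further downstream held the same 3 matches. The Fcgr1 stretch held 1 PU.1 match, 50 to 55 bases before the start, and no C/EBP match. The Fcer1g stretch held neither. Of 32851 RefSeq stretches of 250 bases, 36.8% held the C/EBP motif and 23.3% the PU.1 core, so both are common by letters alone. No match overlapped another in these 3 stretches.

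Signal was read against a floor, the median of all scaled values on an array type (1036.5 intensity units on A). A probe set above it on both arrays has a log2 ratio of the Cebpe-deficient to the wild-type signal. Where 1 reading was above it, the difference is a bound against the floor.

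The bright members of the group, Fcgr3 and Fcer1g, differed little between genotypes, while Fcgr1 was above the floor in the deficient cells only. Fcgr1, the high-affinity receptor of monocytes and macrophages, read 430 in wild-type and 1614 in Cebpe-deficient cells. The wild-type array was below the floor and the deficient array at 1.56 times the floor, which set a bound of 1.56-fold higher (log2 bound 0.64). Of the 6529 type A probe sets, 286 (4.38%) were likewise above the floor in deficient cells only, and 35.3% of those had a bound at least as large. The call depended on the floor. When the floor was lowered to the 30th percentile (255.9 units), both readings counted and the log2 ratio was 1.91, while at the 70th (2559 units) both lay below it and Fcgr1 had no value. Repeat probe sets with ratios under 3 times the floor had an SD of 0.43 log2 units, and the bound does not include that error. A 1-array difference this close to the floor has no replicate check.

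Fcgr3, the low-affinity activating receptor that neutrophils, macrophages, natural killer cells and mast cells carry, read 36211 in wild-type and 32972 in Cebpe-deficient cells. Both readings were over 30 times the floor (34.9 and 31.8 times). The log2 ratio was -0.14, a 1.10-fold lower signal. Repeat probe sets of the same gene at 10 times the floor or more differed with an SD of 0.26 log2 units (117 genes), so the Fcgr3 difference was smaller than this measurement error. Its sign turned under scaling to the bacterial controls, to 0.07, where the median of all type A probe sets was itself at 0.21. Relative to that median Fcgr3 stood at -0.14 there and at -0.16 under the scaling used here. The ID of its probe set ends in _s_at, and whether that set also reads Fcgr2b transcripts was not tested.

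Fcer1g, the chain that both activating receptors need to reach the surface and signal, read 62456 in wild-type and 71217 in Cebpe-deficient cells, 60.3 and 68.7 times the floor. The log2 ratio was 0.19, or 1.14-fold higher, again below the SD of 0.26. Fcer1g was among the brightest of its type, with 13 probe sets brighter on both arrays and a highest reading of 94144. Fcer1g and Fcgr3 were read on the same arrays, so a single scaling factor cancels between them. Their log2 ratios differed by 0.32, which is less than the SD of 0.37 that such a difference would have from measurement error alone.

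**Figure D1:**
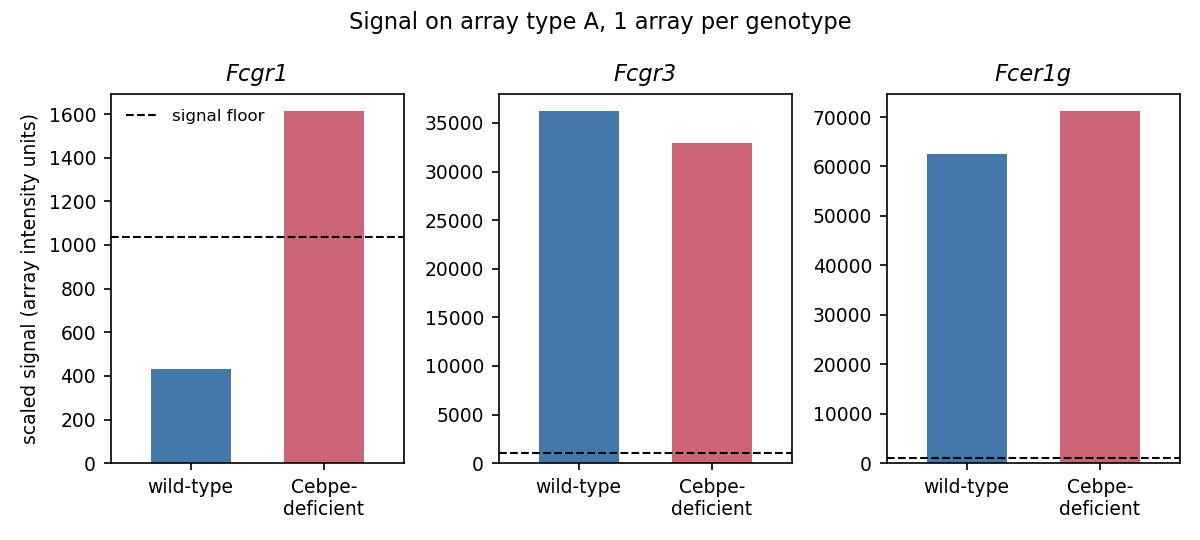
Scaled signal of Fcgr1, Fcgr3 and Fcer1g on array type A (array intensity units, each panel with its own axis from 0), 1 bar per array, with the signal floor as a dashed line. Fcgr1 was below the floor in wild-type cells (scaled 430.1) and above it in deficient cells (1614), whereas Fcgr3 (scaled 36219.8 and 32964) and Fcer1g (62471 and 71199.7) were far above it in both.

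None of the members with a ratio, Fcgr3 and Fcer1g, was 2-fold apart. Among all type A probe sets with a ratio, 5.70% of 2949 were, 2.54% higher and 3.15% lower, and among those at 10 times the floor or more 3.77% of 478 were. The interquartile range of these bright probe sets was -0.24 to 0.25 log2 units around a median of 0.02, and both Fcgr3 and Fcer1g fell inside it. In these unsorted cells, fewer cells of a type and less RNA per cell cannot be told apart.

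**Figure D2:**
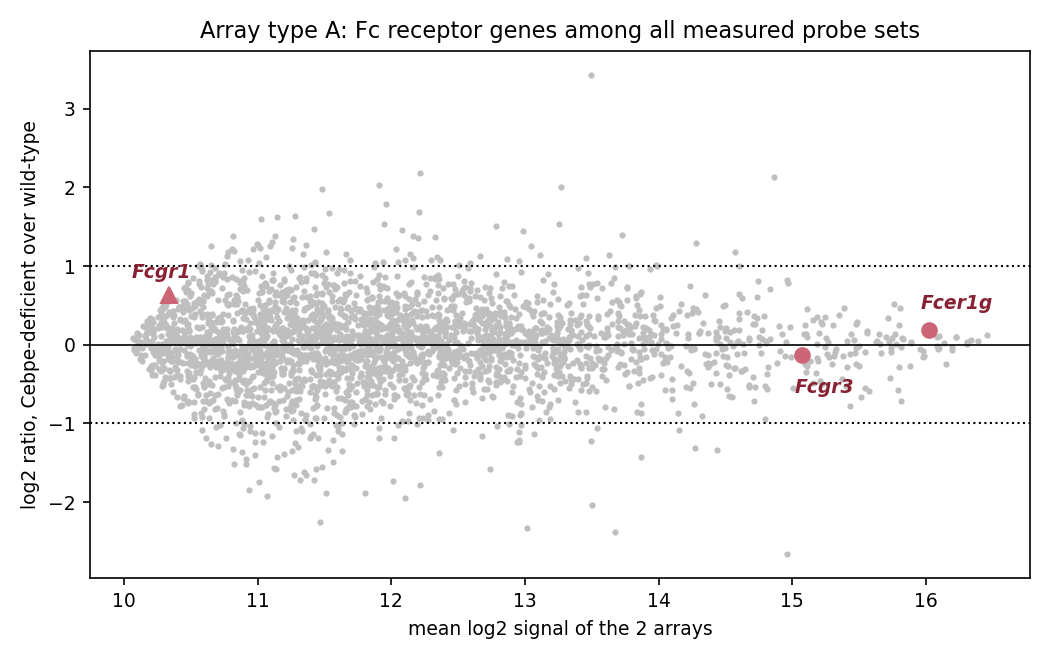
Log2 ratio of Cebpe-deficient over wild-type signal against the mean log2 signal of both type A arrays, 1 grey point per probe set above the floor on both; dotted lines mark 2-fold. Fcgr3 (-0.14) and Fcer1g (0.19) sit near 0 at the bright end, and Fcgr1 is drawn as a triangle at its log2 bound (0.64), with the floor in place of its wild-type reading.

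Fcgr3 and Fcer1g lie near each other on chromosome 1, with 7 protein-coding genes between them, and Fcgr2b lies on the other side of Fcgr3 with only Fcgr4 between. Of the 28 genes that lie among these 3 or within 10 places to either side, 8 had a named probe set and 4 a ratio, from -0.81 for B4galt3 to 0.20 for Apoa2. Nr1i3, between Fcgr3 and Fcer1g, was above the floor on the deficient array only (818 and 1560, log2 bound 0.59). Fcgr1 lies on chromosome 3, where 3 of its 20 neighbours had a named probe set and all were below the floor. The genes whose signal on the 2 type A arrays was closest to that of Fcgr3 were Rps4x, Rps15a and Rplp2, at Euclidean distances of 0.01, 0.06 and 0.08 log2 units. Those closest to Fcer1g were Ctss, Actb and Ctsb, at 0.03, 0.10 and 0.20. With 2 arrays this says only that their readings were alike.

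Among the other Fc receptors, the neonatal receptor Fcgrt, which protects IgG from degradation and also presents antigen, was lower in the deficient cells. Its signal was 3033 in wild-type and 1182 in Cebpe-deficient cells, 2.57-fold lower (log2 ratio -1.36), against 3.64% of 3132 genes with a ratio that were lower by 2-fold or more. The deficient reading was close to the floor, and a floor at the 70th percentile left a log2 bound of -0.25. Of 12 genes listed, 7 had a probe set. Ms4a2, the beta chain of the IgE receptor, had a log2 bound of -0.36, and Fcer1a, Fcer2a, Fcrla, Pigr and Trim21 were below the floor in both genotypes. Of 20 receptors known to pair with Fcer1g, 4 had a probe set and 1 a ratio, the lectin receptor Clec4d at -0.25. Among other ITAM chains, the B cell receptor chains Cd79a and Cd79b stood at -0.37 and -0.11 and the T cell receptor chain Cd247 at -0.20. The signs of Cd79b and Cd247 turned under scaling to the bacterial controls. There the median of all probe sets was itself at 0.21 on type A, which holds Cd79b, and 0.36 on type B, which holds Cd247.

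Kinases that act on the Fcer1g ITAM and below it were read on both array types. Of 13 listed, 10 had a probe set and 6 a ratio, 3 above and 3 below 0 (median 0.09, from -0.25 to 0.37 for Ptk2b). None of the 6 was past 2-fold, against 6.64% of 3132 genes. Under scaling to the bacterial controls all 6 were above 0, where the median of all genes with a ratio was itself at 0.24. Syk, which docks on the phosphorylated ITAM, read 24987 on the wild-type and 21109 on the deficient array, a log2 ratio of -0.25. It turned to 0.10 under scaling to the bacterial controls, where the median of all type B probe sets was itself at 0.36. The Src family kinase Fgr read 25813 and 29837, a log2 ratio of 0.21, and Btk, a Tec family kinase that activates phospholipase C, stood at -0.02. All genes with a ratio had a median of 0.01 under the scaling used here.

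Adaptors and lipid enzymes below Syk had a median log2 ratio of 0.30 over 12 measured genes of 35 listed, 8 of them above 0. The median of all genes with a ratio was 0.01. None of the 12 was past 2-fold, against 6.64% of 3132 genes. Plcg2, the phospholipase C of myeloid and B cells, read 5271 on the wild-type and 8001 on the deficient array, a log2 ratio of 0.60. The highest of the list was the ubiquitin ligase gene Cbl at 0.85 and the lowest the membrane adaptor Lat2 at -0.42. Sh3bp2, an adaptor that binds Syk and Vav proteins, was above the floor in deficient cells only (790 and 2172, log2 bound 1.07), against 9.89% of 617 genes with a bound that were higher by 2-fold or more. Probe sets of Shc1 disagreed, with a log2 ratio of -0.08 on B and a bound of 1.16 on A. Those of Vav1 gave 0.70 on B and 0.20 and -0.06 on A. For Prkcd they gave 0.20, the value used, and -0.24, both on B. For Pik3ca they gave -0.02 on A, the value used, and 0.57 and a bound of -0.27 on B. Under scaling to the bacterial controls Vav1, Cbl and the protein kinase C gene Prkcb reached 2-fold on B, at log2 ratios of 1.06, 1.20 and 1.11, where that scaling moved the median of all type B probe sets by 0.34.

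On the inhibitory side, Inpp5d, the phosphatase that Fcgr2b recruits, read 4008 in wild-type and 5901 in Cebpe-deficient cells, a log2 ratio of 0.56, or 1.47-fold higher. The tyrosine phosphatase Ptpn6 (SHP-1), which other ITIM receptors recruit, read 25726 and 26781, a log2 ratio of 0.06. Of 14 inhibitory phosphatases and adaptors listed, 11 had a probe set and 7 a ratio, 6 of them above 0. Their median was 0.18 (from -0.15 for Inppl1 to 0.56), against 0.01 for all genes with a ratio. None was 2-fold apart, against 6.64% of 3132 genes. The median was the value of Csk, 0.18 on A, whose other probe sets gave -0.10 on A and 0.33 on B. Inpp5d was measured by 1 probe set at 3 to 10 times the floor, where repeat probe sets had an SD of 0.40. Its 0.56 was above that SD but about as large as the SD of all gene ratios, 0.55 over 3132 genes. It has no check against the spread between mice, so a difference of this size is not set apart from the background. Among other ITIM receptors, Sirpa, the receptor for the don't-eat-me protein CD47, was highest at 0.64 (19842 and 31024), the paired receptor Pirb stood at 0.32 and Lilrb4a at -0.03. Cd72, an inhibitory receptor of B cells, cleared the floor on the wild-type array alone (3062 and 616). Its bound was 2.95-fold lower, against 9.08% of 617 genes with a bound that were lower by 2-fold or more. Its log2 bound of -1.56 became -0.26 when the floor was raised to the 70th percentile.

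The actin machinery that closes the phagocytic cup held the other ratios past 2-fold, Arpc5 higher and Marcksl1 lower. Of 26 genes listed, 18 had a ratio, 9 above and 9 below 0 (median -0.02, above 0 under loess, quantile and bacterial-control scaling). Arpc5, a subunit of the Arp2/3 complex, read 5330 on the wild-type and 16254 on the deficient array, 3.04-fold higher, while its partner Arpc4 stood at 0.12 and Actr3 at 0.02. Marcksl1, a membrane-bound actin regulator, read 26460 and 12545, 2.11-fold lower, and under scaling to the bacterial controls it was at -0.87 and no longer 2-fold apart. Of the genes within 2-fold, Limk1, a kinase that inactivates cofilin, was lowest at -0.58 and the coronin Coro1a highest at 0.33. Over all pathway lists, 1 of 52 genes with a ratio was 2-fold higher or more and 2 were 2-fold lower or more (median 0.08), so 3 of 52, against the 6.64% of all genes given above.

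**Figure D3:**
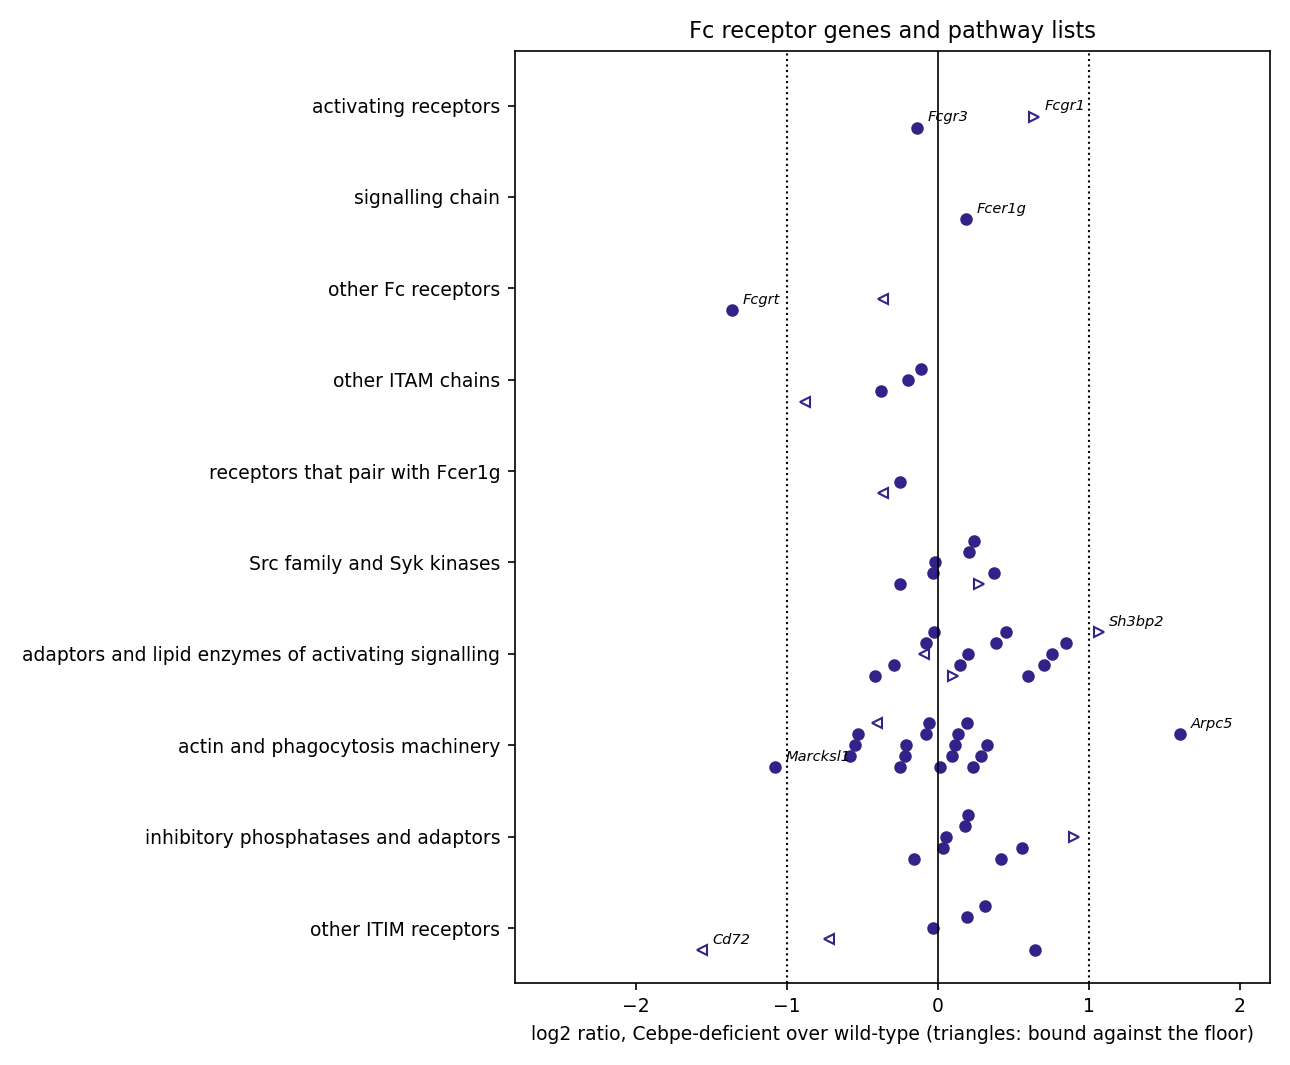
Log2 ratio of Cebpe-deficient over wild-type signal for each measured gene of the Fc receptor group and of the pathway lists, 1 point per gene, with 2-fold marked by dotted lines and open triangles for bounds. Among ratios, Fcgrt (-1.36) and Marcksl1 (-1.08) lie below the 2-fold lines and Arpc5 (1.61) above, and among bounds Cd72 (-1.56) lies below and Sh3bp2 (1.07) above.

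Markers of the cells that carry these receptors were read beside them. Of 14 monocyte and macrophage markers, 9 were below 0 and 5 above (median -0.52), and their summed signal was 520686 in wild-type and 467125 in deficient cells. Cd14, the lipopolysaccharide co-receptor, stood at -1.03 and Mrc1, the mannose receptor, at -2.30. The others below 0 were C1qa (-0.89), Msr1 (-0.87), C1qb (-0.80), C1qc (-0.56), Marco (-0.53), Adgre1 (-0.52) and Lyz2 (-0.43). Those above 0 were Ccr2 (0.97), Csf1r (0.84), Mpeg1 (0.66), Cd68 (0.29) and Ctss (0.17). Of 9 neutrophil markers with a ratio, 7 were below 0 (median -0.52, summed signal of the list 199416 and 149122). These were Ngp (-1.57), Ly6g (-1.44), Csf3r (-1.31), Mmp9 (-0.62), Lcn2 (-0.52), S100a9 (-0.24) and S100a8 (-0.08). Mpo (0.36) and Elane (0.11) were above 0, and Cxcr2 and Ltf had log2 bounds of -1.03 and -0.07. Mpo and Elane, and Ngp in deficient cells, read close to the floor. B cell markers, of cells in which Fcgr2b is the main Fc gamma receptor, had 4 of 7 above 0 (median 0.18, summed signal 62997 and 54123). Above 0 were Cr2 (0.68), Ms4a1 (0.48), Blk (0.24) and Ighd (0.18), and below 0 Ighm (-0.50), Cd79a (-0.37) and Cd79b (-0.11). Another Ms4a1 probe set gave -0.30, and other Cr2 probe sets had negative signal in both genotypes. When scaling made the array medians equal, the median of these markers was 0.004, against 0.02 for all genes with a ratio. Natural killer and T cell markers were mostly below the floor (6 of 8 in both genotypes), with Gzma, the only ratio, at -0.66. Their summed signals of 5003 and 348.1 add readings below 0 and are no measure of a change. Readings below 0 also enter the neutrophil, B cell, and mast cell and basophil sums. Each sum given here mixes type A and type B readings, whose floors differ. Mast cell and basophil markers had 2 of 5 above 0, with summed signals of 17192 and 15124 and the defining Fcer1a below the floor in both. Eosinophil and dendritic cell lists had 1 and 2 genes with a ratio, Ccr3 at -1.92 and Zbtb46 and Fscn1 at 0.92 and -1.18. The part of cell composition in the Fc receptor readings was not tested.

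**Figure D4:**
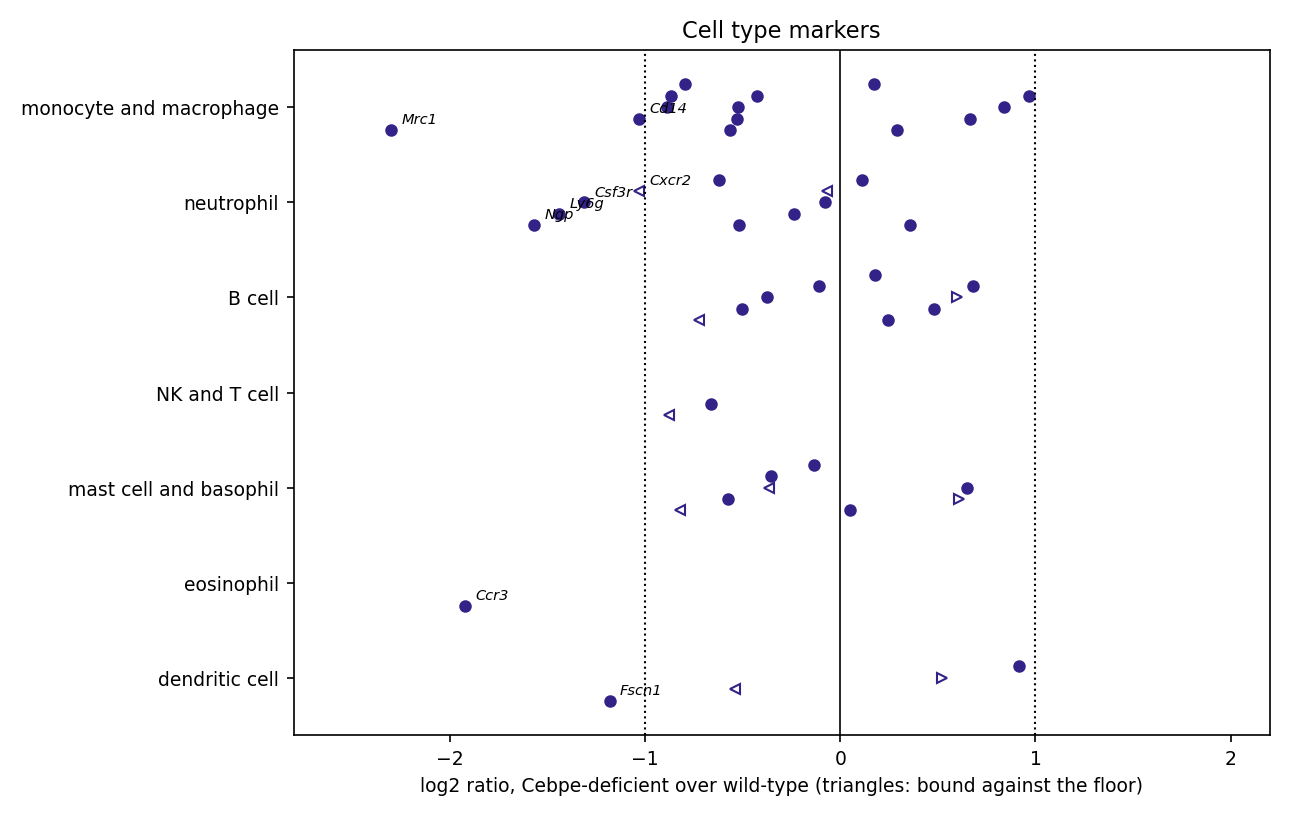
Log2 ratio of Cebpe-deficient over wild-type signal for each measured cell type marker, 1 point per gene, with 2-fold marked by dotted lines and open triangles for bounds. Monocyte and macrophage markers spread from -2.30 (Mrc1) to 0.97 (Ccr2), and 7 of 9 neutrophil markers with a ratio lie below 0.

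The Fc receptor values were recomputed under other choices of scaling, floor and probe set. With 1 bright probe set each, Fcgr3 and Fcer1g cannot change with the floor or the choice of probe sets, so only the scaling could move them. Over the other scalings Fcgr3 ranged from -0.14 to 0.07 and Fcer1g from 0.19 to 0.39, both within the measurement error of their first value. Their difference, in which a single scaling factor cancels, was 0.31 under quantile and 0.35 under loess scaling. Fcgr1 kept a bound between 0.63 and 0.75 under each scaling and moved only with the floor.

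**Figure D5:**
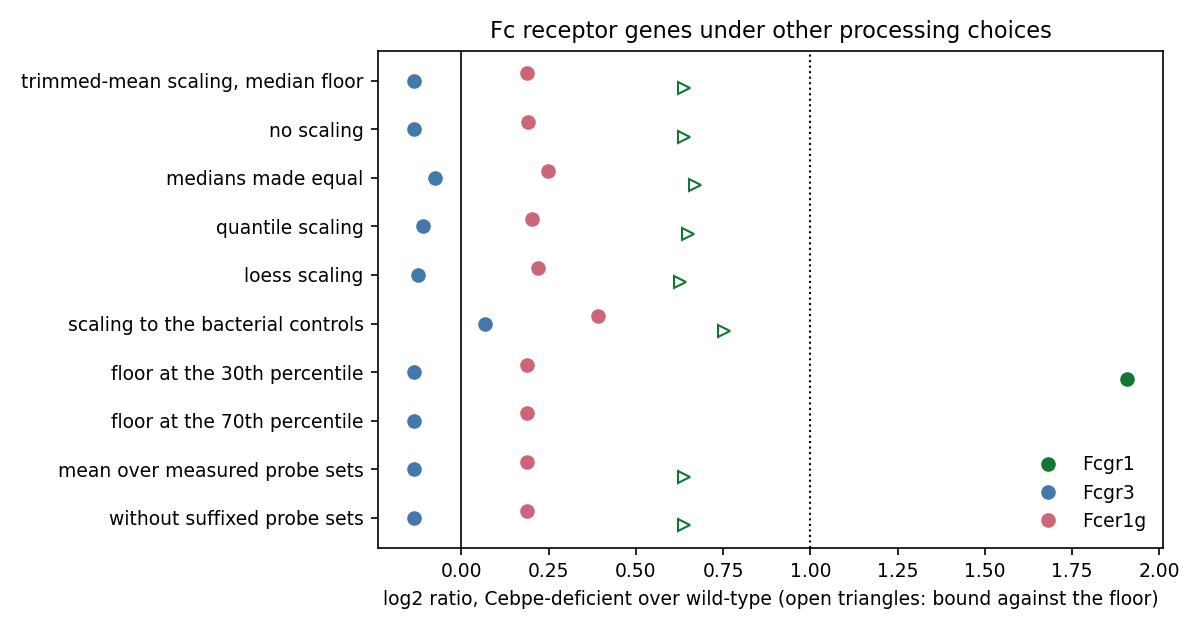
Log2 ratio of Cebpe-deficient over wild-type signal for Fcgr1, Fcgr3 and Fcer1g under each processing choice, filled points for ratios and open triangles for bounds; the dotted line marks 2-fold. Fcgr3 and Fcer1g stay within 2-fold throughout, and Fcgr1 passes it only with the floor at the 30th percentile (1.91).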

How the data were processed

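Each of 4 one-colour arrays gave 1 value per probe set, 6529 on type A and 6540 on type B besides controls. The deposited numbers are linear intensities, all whole, and 20.6% to 29.3% of an array's values were below 0. How the authors corrected and scaled them is not given in the sources used here. Groups came from the sample titles. On type B the deficient sample's RNA source text does not name the deficiency. The labels break off where they begin to describe combining cells.

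The arrays of a type were scaled to the same mean with the highest and lowest 2% of values set aside (factors 0.999 to 1.001). Where a gene had several probe sets, the brightest one with a ratio stood for it. Symbols came from the platform annotation, and 7525 of 7542 named probe sets matched a RefSeq gene ID. Measurement error was taken from repeat probe sets, as their pooled within-gene SD, and holds no spread between mice. The number of arrays limits the precision. Genes were named by a rule that did not cover the cell type markers. It took all members, pathway genes past 2-fold or with such a bound, the highest and lowest of each list, and the 3 closest patterns. Others of known role were added after their values were seen. The members and lists were chosen with earlier results of these data known. The difference between Fcer1g and Fcgr3 was added after the data were seen, in place of the comparison with Fcgr2b. The ratio procedure was tested on simulated data. Computation used Python 3.11.15 with pandas 2.3.3, numpy 2.4.6, statsmodels 0.14.6 (loess), scipy 1.17.1 (ranks) and, for figures, matplotlib 3.10.9.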

Additional observations from a re-analysis of the deposited data

How the results depend on the processing

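With 1 array per genotype and type, no array could be left out and no paired analysis was possible. Fcgr3 and Fcer1g, each with 1 bright probe set, could move only with the scaling, and moved by less than the SD of repeat probe sets. Their difference could move only under quantile and loess scaling and did so by less than its SD. Fcgr1 had a log2 ratio of 1.91 with the floor at the 30th percentile and no value at the 70th. The comparison with Fcgr2b gave no value under any setting. Over all probe sets, 200 lay at 2-fold higher or more and 204 at 2-fold lower or more. Scaling to the bacterial controls gave 488 and 110, a floor at the 30th percentile 660 and 630, one at the 70th 76 and 67, 3-fold in place of 2-fold 38 and 49, type A alone 75 and 93 and type B alone 125 and 111. Of the pathway genes, 1 was higher and 2 were lower. Scaling to the bacterial controls gave 4 higher and 1 lower with a median of 0.31, in place of 0.08, and the floor at the 30th percentile gave 3 and 6. At the 70th percentile 1 was lower, at 3-fold 0 were lower, on type A alone 0 were higher and on type B alone 0 were lower. Of 212 values of 24 pathway genes, 12 moved by more than the SD or between ratio and bound, and no 2-fold difference turned. These 24 included Marcks, not named above, which had 2 of the moves. They left out some genes that are named above, Vav1 and Prkcb among them. Lost values were not counted: Sh3bp2, Dok1 and Cd247 had none with the floor at the 70th percentile. Ptk2b had none when probe sets with an ID suffix of f, g, r or i were left out. As with Fcgr3, bright genes with 1 probe set could move only with the scaling. Low signal limits Fcgr1, Fcgrt, Cd72 and Sh3bp2, which lay near or below the floor in 1 genotype.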
